A study of Homo sapiens with 9 samples.

Results

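The genes described here encode the proteins of the mitochondrial ribosome, and were followed in HT-29 cells, an established epithelial line from a human colon adenocarcinoma. They were taken by name: every array row with 1 annotated symbol made of MRPL or MRPS and a number, leaving out pseudogenes and hyphenated names, with the brightest row kept for each gene. The rule found 73 genes of the 14884 named genes of the array, 48 with MRPL symbols and 25 with MRPS symbols. The rule itself uses no measured difference between groups, but these genes and the lists below were chosen with earlier results of these data known.

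Total RNA was hybridised to Affymetrix whole-transcript gene arrays, 9 in all and 3 per group, numbered here by replicate. Untreated cells received the vehicle. The other groups received rosemary extract (a plant extract rich in polyphenols) or carnosic acid, one of the phenolic diterpenes in it. All groups were harvested after 24 h in the same medium, and all come from 1 cell line. The arrays of a group are called biological replicates, with no culture day or shared batch given, so p-values measure the spread between these samples. No dose of either treatment is stated in the sources used here, so a difference between the treatments is not a difference at a matched dose. In bulk RNA, fewer cells carrying a transcript and less of it per cell cannot be told apart.

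The mitochondrial ribosome translates the few messages encoded by mitochondrial DNA, all of which specify membrane subunits of the respiratory chain and of ATP synthase. Its RNAs come from the mitochondrial genome, while every one of its proteins is encoded in the nucleus, made in the cytosol and imported. Some of these proteins have counterparts in bacterial ribosomes and sit around the RNA core. Others were gained by mitochondria and lie mostly on the outside. Colon epithelium takes much of its energy from butyrate oxidised in mitochondria, and many colon cancer lines, HT-29 among them, ferment glucose strongly.

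The values are RMA values on a log2 scale (RMA corrects background, gives the arrays 1 distribution and combines the probes of each row). A change is the treated mean minus the untreated mean on that scale, with the standard error (SE) from limma, and a gene was called at an adjusted p under 0.05 (Benjamini-Hochberg over the 11163 genes that were not among the dimmest 25%). All 73 genes passed that filter. Of 10 colon epithelial markers with a named row, EPCAM was at 11.36 and KRT18 at 12.59 in untreated cells. CDX1 and CDX2 were lower, at 6.203 and 5.765. With the extract the group means fell by 1.29 for VIL1, by 0.48 for KRT18 and by 0.19 for EPCAM. They rose by 0.77 for KRT20, by 2.82 for CEACAM5 and by 0.58 for CLDN7. With carnosic acid the means fell by 0.35 for VIL1, by 0.31 for KRT18 and by 0.21 for EPCAM. They rose by 0.88 for KRT20, by 2.22 for CEACAM5, by 0.31 for CLDN7 and by 0.28 for KRT19. KRT8, CDX1 and CDX2 were called with neither treatment. The summed log2 level of the 10 epithelial rows (12 listed) was 89.8 to 91.0 in untreated arrays. It was 91.5 to 92.4 in extract and 92.3 to 93.2 in carnosic acid arrays. Among markers of other cells, the fibroblast genes DCN and LUM were under the dim limit, while THY1 was at 6.13 in untreated cells. The endothelial genes PECAM1 and KDR were also under it, with VWF at 4.87 and CLDN5 at 6.24 in untreated cells. Of 4 leukocyte markers, CD14, CSF1R and NKG7 stayed between 4.29 and 5.76 on every array, while CD68, a lysosomal protein also made outside leukocytes, rose by 1.89 with the extract and 1.24 with carnosic acid. CD14, CSF1R and NKG7 were called with neither treatment, at -0.31, -0.14 and -0.09 with the extract. The summed log2 level of the 4 leukocyte rows (8 listed) was 24.0 to 24.1 in untreated arrays. It was 24.9 to 25.7 in extract and 24.4 to 24.9 in carnosic acid arrays. The summed log2 level of the 3 fibroblast rows (8 listed) was 12.4 to 13.0, 12.3 to 12.7 and 12.4 to 12.8. That of the 4 endothelial rows (6 listed) was 19.9 to 20.0, 19.4 to 19.8 and 19.0 to 20.1. Array values have no true zero, and the part of these markers in the results below was not tested.

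Both treatments lowered a minority of the mitochondrial ribosomal protein genes by small amounts, and 2 genes went the other way. With rosemary extract 26 of the 73 fell and 2 rose, and 45 did not pass the test. Over all genes tested, the same call was made for 16.3% as lower and for 21.8% as higher, against 35.6% and 2.74% of the ribosomal protein genes. The median change was -0.14 (log2), with -0.02 over all genes tested, and single genes lay between -0.78 and 0.68. With carnosic acid 13 fell and 1 rose, and 59 did not pass. The background there was 6.12% lower and 12.9% higher, against 17.8% and 1.37% of the ribosomal protein genes. The median change was -0.11, with -0.01 over all genes tested. Both comparisons use the same untreated arrays, so their values are not independent of each other.

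The calls with the extract rest partly on single arrays. Without extract array 1 only 17 genes were called lower, and with every row of the array tested, 17. Over all genes tested, 1817 were lower in the reported fit and 1490 without extract array 1. With every row tested, 3023 of 53617 rows were lower. Over all 20 alternative settings the number lower with the extract was 17 to 39 and the number higher was 2 in each. Of the 26 genes, 17 kept their call in all 20, and so did both that rose. For carnosic acid the number lower was 8 without carnosic acid array 1 and 7 with every row tested. It was 21 to 27 under cyclic loess and under both rescalings over the genes tested. Over all genes tested, 683 were lower in the reported fit and 367 without carnosic acid array 1. Under cyclic loess and both rescalings that number was 872 to 1098, and with every row tested it was 828 of 53617 rows. Of its 13 genes, 7 kept their call in all 20 settings, as did the 1 that rose. Without untreated array 3, 2 genes were called higher with carnosic acid.

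**Figure D1:**
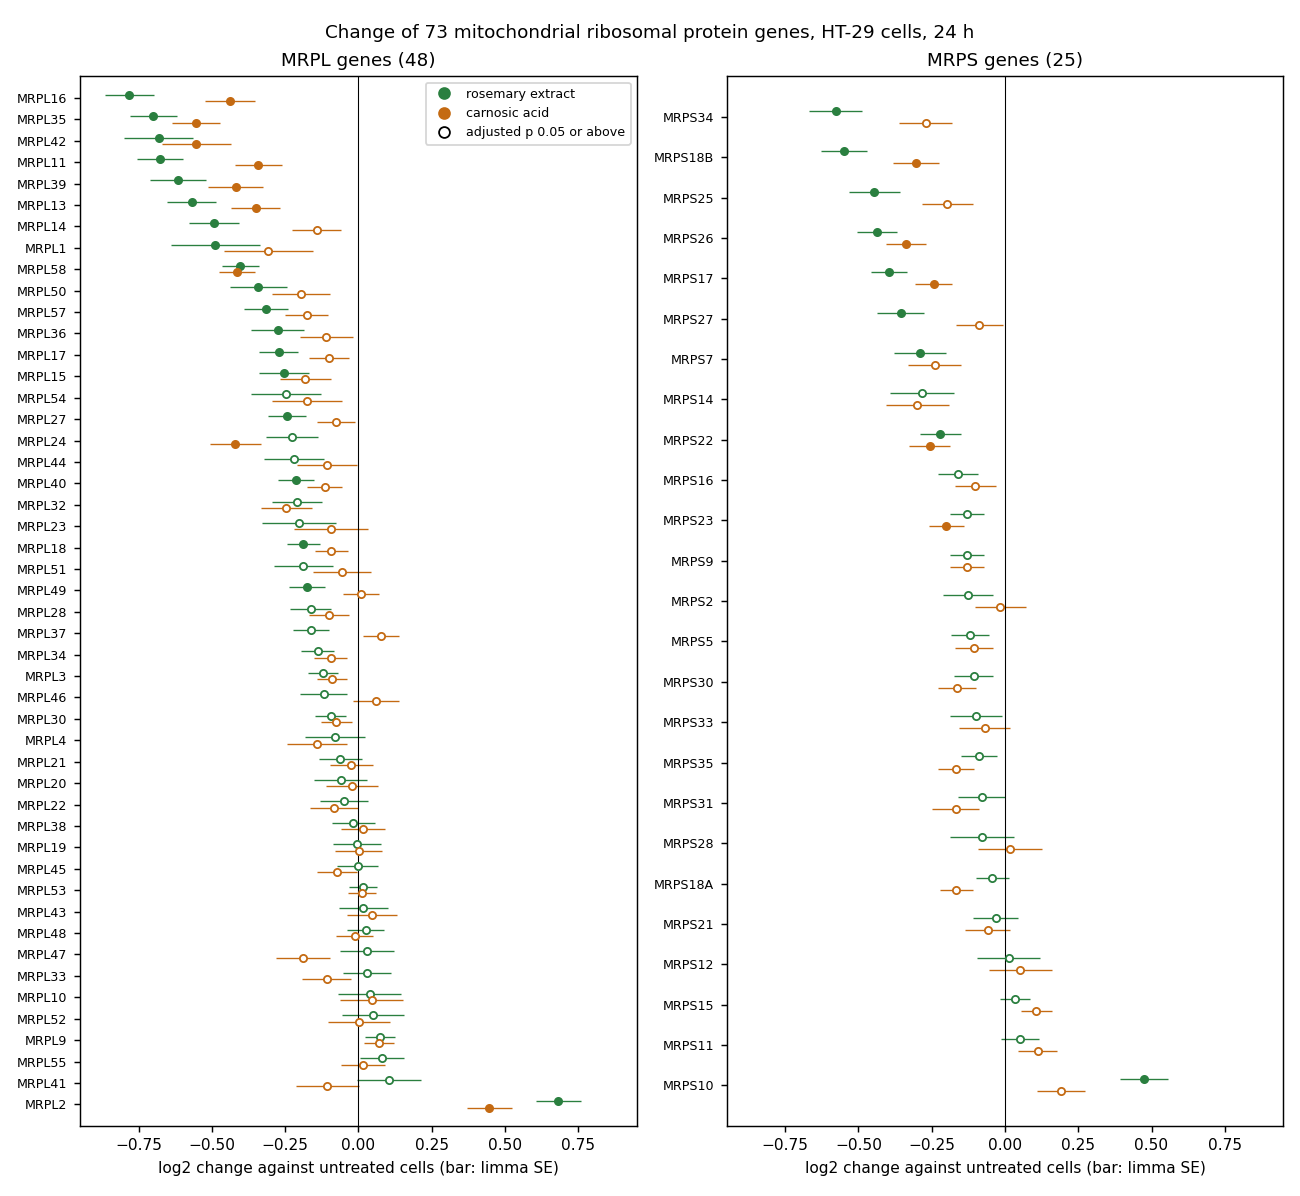
Log2 change against untreated cells (x axis) of the 48 MRPL and 25 MRPS genes (y axis), with points for rosemary extract and carnosic acid, bars of 1 limma SE, and open points where the adjusted p was 0.05 or above. Most points lie left of 0 in both comparisons, and MRPL2 and MRPS10 stand to the right.

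To show what lies upstream of these genes, the 250 bases before each start were taken from RefSeq promoters (GRCh38.p14), which matched 65 of the 73. Both strands were searched for the letters CCGGAAG (an ETS family core), GCGCA, any base, GCGC (NRF1, a regulator of nuclear genes for mitochondria), AAGATGGCG (YY1), CCAAT, TGACGTCA (the cAMP response element) and TGATGNAA (a composite ATF4 element). None of these motifs holds another of the list. The ETS letters were in 22 of the 65 promoters (33.8%), against 14.2% of the 8486 tested genes with a promoter and 8.8% of all 27305 promoters. The NRF1 letters were in 12.3%, against 9.1% and 5.5%, and the YY1 letters in 4.6%, against 1.0% and 0.6%. CCAAT was in 27.7%, against 34.6% and 33.0%. The cAMP element was in 0 of the 65 promoters (2.6% and 1.8% in the larger sets) and the ATF4 element in 1 (1.5%, against 1.4% and 3.2%). Median GC content was 60.0%, 64.4% and 58.0%. By response to the extract, the ETS letters were in 6 of 23 promoters of genes that fell (26.1%) and in 15 of 41 of genes that were not called (36.6%). The NRF1 letters were in 4 of the 23 (17.4%) and 4 of the 41 (9.8%), the YY1 letters in 4.3% and 4.9%, and CCAAT in 26.1% and 29.3%. A match is a stretch of letters and not a measured binding site.

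Promoters are printed for 4 genes, 5′ to 3′ on the gene's strand and ending at the base before the start, with the matched letters in capitals. MRPL16 had the largest fall with the extract, MRPS34 the largest fall among small subunit genes, MRPS10 rose, and MRPL14 fell with the extract and was not called with carnosic acid. MRPS34 and MRPL14 were picked for holding an ETS and an NRF1 match, each with the largest fall among promoters that did. The capitals mark CCAAT read on the opposite strand in MRPL16, 3 ETS matches on the opposite strand in MRPS34, 1 ETS match in MRPS10 and 1 NRF1 match in MRPL14.
MRPL16 (chr11:59810779-59811028, minus strand): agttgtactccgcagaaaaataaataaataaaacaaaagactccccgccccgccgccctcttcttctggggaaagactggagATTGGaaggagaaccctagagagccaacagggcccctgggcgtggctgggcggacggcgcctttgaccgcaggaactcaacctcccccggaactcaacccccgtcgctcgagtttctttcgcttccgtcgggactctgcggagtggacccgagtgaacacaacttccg
MRPS34 (chr16:1773135-1773384, minus strand): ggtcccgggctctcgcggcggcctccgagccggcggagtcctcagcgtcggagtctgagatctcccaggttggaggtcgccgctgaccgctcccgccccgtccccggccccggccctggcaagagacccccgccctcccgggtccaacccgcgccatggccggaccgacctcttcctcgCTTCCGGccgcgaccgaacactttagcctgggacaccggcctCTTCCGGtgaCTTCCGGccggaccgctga
MRPS10 (chr6:42217862-42218111, minus strand): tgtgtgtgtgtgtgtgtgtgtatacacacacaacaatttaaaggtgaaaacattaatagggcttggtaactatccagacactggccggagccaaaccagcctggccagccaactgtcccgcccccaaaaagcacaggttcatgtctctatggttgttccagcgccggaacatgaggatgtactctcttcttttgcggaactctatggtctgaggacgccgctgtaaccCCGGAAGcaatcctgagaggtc
MRPL14 (chr6:44127309-44127558, minus strand): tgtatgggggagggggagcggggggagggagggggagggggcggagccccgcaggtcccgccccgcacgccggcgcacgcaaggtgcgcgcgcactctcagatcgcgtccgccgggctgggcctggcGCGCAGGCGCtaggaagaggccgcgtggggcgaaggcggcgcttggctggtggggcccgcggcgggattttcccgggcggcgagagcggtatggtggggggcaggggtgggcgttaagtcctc
Counting the base before the start as -1, the first matched base was at -168 in MRPL16, at -71, -29 and -19 in MRPS34, at -22 in MRPS10 and at -123 in MRPL14. Since MRPS34 was picked for its ETS match, its sharing of these letters with MRPS10 says nothing about the response.

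Among large subunit proteins with a bacterial counterpart, 29 genes were measured, and 11 fell and 1 rose with the extract (median -0.16). These shares were 37.9% and 3.45%, against 16.3% and 21.8% of all genes tested. Carnosic acid lowered 5 and raised 1 (median -0.10), or 17.2% and 3.45%, against 6.12% and 12.9% of all genes tested. Without extract array 1, 7 fell with the extract. MRPL16 belongs to the conserved core near the peptidyl transferase centre, where peptide bonds form. Its untreated arrays read 8.48, 8.53 and 8.63, its extract arrays 7.82, 7.64 and 7.84, and its carnosic acid arrays 7.97, 8.12 and 8.24. All 6 treated arrays lay below all untreated ones, and the extract arrays lay below those of carnosic acid. The extract lowered it by 0.78 ± 0.08 (SE) on the log2 scale, to 0.582 of the untreated level (limma adjusted p = 1.95e-05). With carnosic acid the change was -0.44 ± 0.08 (limma adjusted p = 0.00404).

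MRPL11 forms part of the stalk base where elongation factors dock. It read 8.52, 8.53 and 8.59 in untreated, 7.85, 7.81 and 7.95 in extract and 8.05, 8.21 and 8.36 in carnosic acid cells. The groups did not overlap, with carnosic acid between the others. The change was -0.68 ± 0.08 with the extract (limma adjusted p = 3.70e-05) and -0.34 ± 0.08 with carnosic acid (limma adjusted p = 0.0113, and 0.054 with every row of the array tested). MRPL35, a small protein of the conserved set, read 7.86, 7.77 and 7.90 untreated, 7.23, 7.12 and 7.08 with the extract and 7.29, 7.17 and 7.41 with carnosic acid. Here both treated groups lay well below the untreated arrays and overlapped each other. The falls were -0.70 ± 0.08 and -0.55 ± 0.08 (limma adjusted p = 3.39e-05 and 0.000736).

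MRPL14 lies at the interface with the small subunit. Its arrays read 8.10, 8.36 and 8.09 untreated, 7.69, 7.62 and 7.76 with the extract, and 7.97, 8.02 and 8.13 with carnosic acid. The extract arrays stood apart and the carnosic acid arrays overlapped the untreated ones. The change was -0.49 ± 0.09 with the extract (limma adjusted p = 0.000668) and -0.14 ± 0.09 with carnosic acid (limma adjusted p = 0.277). MRPL24, which helps to shape the early large subunit, had the larger estimate with carnosic acid. It read 8.03, 8.32 and 8.32 untreated, 7.92, 8.00 and 8.07 with the extract and 7.71, 7.87 and 7.82 with carnosic acid. The carnosic acid arrays lay below all others, while untreated array 1 fell among the extract arrays. Carnosic acid lowered it by 0.42 ± 0.09 (limma adjusted p = 0.00624), and the extract change was -0.23 ± 0.09 (limma adjusted p = 0.0634). The direct difference between the treatments, 0.19 ± 0.09, did not pass (limma adjusted p = 0.179).

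MRPL2, which contributes to the peptidyl transferase centre and to a bridge between the subunits, rose with both treatments. Its arrays read 8.83, 9.12 and 9.03 untreated, 9.67, 9.73 and 9.62 with the extract and 9.35, 9.45 and 9.52 with carnosic acid. The 3 groups did not overlap. The rise was 0.68 ± 0.08 with the extract, 1.61-fold (limma adjusted p = 2.69e-05), and 0.45 ± 0.08 with carnosic acid, 1.36-fold (limma adjusted p = 0.00202). It was the only one of the 73 genes that rose with carnosic acid in the reported fit. MRPL23, at the exit of the peptide tunnel, was among the dimmer genes and read 5.65, 6.01 and 5.89 untreated, 5.69, 5.57 and 5.69 with the extract and 5.57, 6.01 and 5.71 with carnosic acid. Its groups overlapped, and neither change passed (-0.20 ± 0.13 and -0.09 ± 0.13, limma adjusted p = 0.240 and 0.657).

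**Figure D2:**
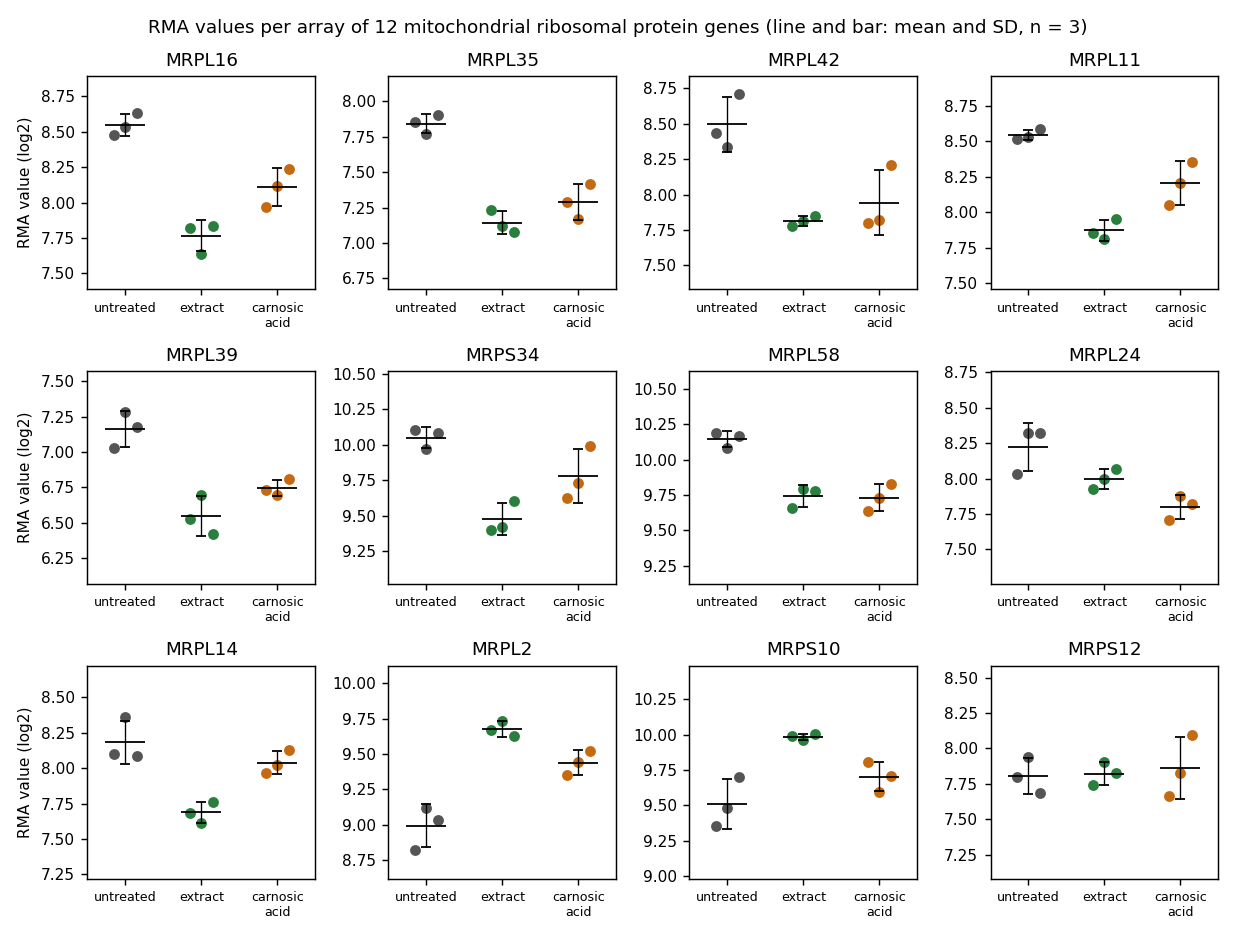
RMA values (log2, y axis) of 12 mitochondrial ribosomal protein genes on each of the 9 arrays (points, by group on the x axis), with the mean as a line and 1 SD as a bar (n = 3), on axes of equal span that do not start at 0. MRPL16 and MRPL11 step down from untreated to carnosic acid to extract, MRPL14 is low with the extract alone, MRPL2 is high in both treatments, and MRPS12 overlaps in all groups.

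Of the 21 large subunit proteins specific to mitochondria, 7 fell and 0 rose with the extract (median -0.16), and 3 fell and 0 rose with carnosic acid (median -0.11). The shares lower were 33.3% and 14.3%, against 16.3% and 6.12% of all genes tested, where 21.8% and 12.9% were higher. By limma at an unadjusted p under 0.05, 0 rose with either treatment. Without extract array 1, 4 fell with the extract. MRPL42 read 8.44, 8.34 and 8.71 untreated, 7.78, 7.82 and 7.85 with the extract, and 7.80, 7.82 and 8.21 with carnosic acid. The extract arrays were tight, and carnosic acid array 3 stood above its group without reaching the untreated arrays. The changes were -0.68 ± 0.12 and -0.55 ± 0.12 (limma adjusted p = 0.000674 and 0.00680). MRPL39, which resembles the tRNA-binding part of threonyl-tRNA synthetase, read 7.03, 7.28 and 7.18 untreated, 6.53, 6.70 and 6.42 with the extract and 6.73, 6.69 and 6.81 with carnosic acid. Every treated array lay below every untreated one, by changes of -0.62 ± 0.09 and -0.42 ± 0.09 (limma adjusted p = 0.000287 and 0.00926).

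MRPL58 (also called ICT1) is a peptidyl-tRNA hydrolase built into the large subunit that frees stalled peptides. It read 10.19, 10.08 and 10.17 untreated, 9.66, 9.79 and 9.78 with the extract and 9.63, 9.73 and 9.82 with carnosic acid. The treated groups overlapped each other and not the untreated group. Both changes were called, at -0.40 ± 0.06 and -0.41 ± 0.06 (limma adjusted p = 0.000301 and 0.000808), and the treatments differed by 0.01 ± 0.06 (limma adjusted p = 0.934).

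MRPS30 and MRPS18A bear small subunit names and sit in the large subunit. MRPS30 changed by -0.11 ± 0.07 with the extract and -0.16 ± 0.07 with carnosic acid (limma adjusted p = 0.246 and 0.113). MRPS18A changed by -0.04 ± 0.06 and -0.17 ± 0.06 (limma adjusted p = 0.595 and 0.0616). Neither passed as reported. With carnosic acid both were called lower under cyclic loess and both rescalings over the genes tested, and MRPS18A also with the dimmest 50% left out or without untreated array 3. MRPL41, also specific to mitochondria, read 6.56, 6.87 and 6.82 untreated, 6.74, 6.98 and 6.85 with the extract and 6.53, 6.60 and 6.81 with carnosic acid, with overlapping groups and no call (0.11 ± 0.11 and -0.11 ± 0.11, limma adjusted p = 0.497 and 0.546).

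The small subunit proteins specific to mitochondria had the lowest median of the 4 classes. Of these 10 genes, 6 fell with the extract (median -0.29) and 4 with carnosic acid (median -0.20), none rose, and all 10 estimates were below 0 in both comparisons. The shares lower were 60.0% and 40.0%, against 16.3% and 6.12% of all genes tested, where 21.8% and 12.9% were higher. By limma at an unadjusted p under 0.05, 0 of them rose with either treatment. No test compared this class with the others. With carnosic acid 1 was called without carnosic acid array 1, 2 without carnosic acid array 2 and 2 without untreated array 3. MRPS34, which binds the small subunit RNA and is needed for its stability, read 10.10, 9.97 and 10.08 untreated, 9.40, 9.42 and 9.60 with the extract and 9.62, 9.73 and 9.99 with carnosic acid. The extract group stood apart, and carnosic acid array 3 reached into the untreated range. The change was -0.58 ± 0.09 with the extract (limma adjusted p = 0.000354) and -0.27 ± 0.09 with carnosic acid (limma adjusted p = 0.0600, not called). MRPS27, a pentatricopeptide repeat protein of the small subunit, changed by -0.36 ± 0.08 with the extract (limma adjusted p = 0.00413) and by -0.09 ± 0.08 with carnosic acid (limma adjusted p = 0.491). The other genes of this class that fell with the extract were MRPS18B, MRPS22, MRPS25 and MRPS26. Those that fell with carnosic acid were MRPS18B, MRPS22, MRPS23 and MRPS26. Several of these are named because the class holds few genes. With carnosic acid MRPS23 lost its call in 9 of the 20 settings, MRPS22 in 7, MRPS18B in 4 and MRPS26 in 0. MRPS22 also lost its extract call in 7, while MRPS18B, MRPS25 and MRPS26 kept theirs in all 20.

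Of the small subunit proteins with a bacterial counterpart, 13 were measured, and 2 fell and 1 rose with the extract (median -0.12), and 1 fell with carnosic acid (median -0.06). The shares lower, 15.4% and 7.69%, lie near the 16.3% and 6.12% of all genes tested. The falls were MRPS17 with both treatments and MRPS7 with the extract, named after their values were seen. The count of falls with the extract was 1 without untreated array 1, without extract array 1 or without extract array 2. With carnosic acid it was 0 without carnosic acid array 1 and 2 without extract array 3, and 1 gene rose without untreated array 3. MRPS10 was the gene that rose. It read 9.36, 9.48 and 9.70 untreated, 9.99, 9.96 and 10.00 with the extract, and 9.81, 9.60 and 9.71 with carnosic acid. The extract arrays lay within a narrow band above all others, and the carnosic acid arrays overlapped the untreated ones. The rise was 0.47 ± 0.08 with the extract, 1.39-fold (limma adjusted p = 0.000713), and 0.19 ± 0.08 with carnosic acid (limma adjusted p = 0.131). MRPS12, of the decoding centre, read 7.80, 7.94 and 7.69 untreated, 7.74, 7.90 and 7.82 with the extract and 7.66, 7.82 and 8.10 with carnosic acid. Its groups overlapped throughout, and the changes were 0.01 ± 0.11 and 0.05 ± 0.11 (limma adjusted p = 0.939 and 0.787).

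The rosemary extract and carnosic acid groups differed directly in few of these genes. Rosemary extract was lower than carnosic acid for 6 and higher for 1, with 66 not passing. The calls over all genes tested were 9.07% lower and 8.24% higher, and among the ribosomal protein genes 8.22% and 1.37%. The share lower thus lies near that of all genes tested. The median difference was -0.04, with 0.01 over all genes tested. The 6 were MRPL14 (-0.35 ± 0.09), MRPL16 (-0.34 ± 0.08), MRPL11 (-0.33 ± 0.08), MRPS34 (-0.31 ± 0.09), MRPS27 (-0.27 ± 0.08) and MRPL37, a large subunit protein specific to mitochondria (-0.24 ± 0.06). Their limma adjusted p-values ran from 0.0129 for MRPL11 to 0.0412 for MRPS27. MRPS10 was higher with the extract by 0.28 ± 0.08 (limma adjusted p = 0.0369). None of the 7 calls held in all 20 settings: 0 genes were called lower without extract array 2, without carnosic acid array 3 or with every row tested, and 3 without carnosic acid array 2. MRPS10 lost its call without any single extract array and without carnosic acid array 2 or 3. Under median centring the split was 6 lower and 0 higher. MRPL37 itself was not called against untreated cells, at -0.16 ± 0.06 with the extract and 0.08 ± 0.06 with carnosic acid (limma adjusted p = 0.0602 and 0.426).

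Read array by array, the genes as a group were lower on every treated array. The median of the 73 values, each minus its untreated mean, was -0.01, -0.01 and 0.04 on the untreated arrays, -0.17, -0.18 and -0.12 on the extract arrays and -0.15, -0.12 and -0.05 on the carnosic acid arrays. The same median over all genes tested stayed between -0.02 and 0.02. Among the carnosic acid arrays, array 3 lay nearest to the untreated ones. It held the highest value of its group for 59 of the 73 genes, with 11 for array 2 and 3 for array 1. The median over all genes tested was also highest on carnosic acid array 3, at 0.017 against -0.025 on array 1 and 0.003 on array 2. The share of all genes tested that were highest on carnosic acid array 3 was not counted. Without carnosic acid array 3, 14 genes were called lower with carnosic acid in place of 13. The ranges of the 3 extract arrays lay wholly below those of the untreated arrays for 36 of the 73 genes and wholly above for 2, against 21.7% and 25% of all genes tested. For carnosic acid 24 lay below and 2 above, against 13.1% and 19.7%. Between the treatments, the extract lay below for 14 and above for 7, against 15.6% and 16.2%. The median SD between arrays was 0.09 in untreated, 0.06 in extract and 0.09 in carnosic acid cells, so that a change of about that size in 1 gene is within the spread.

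**Figure D3:**
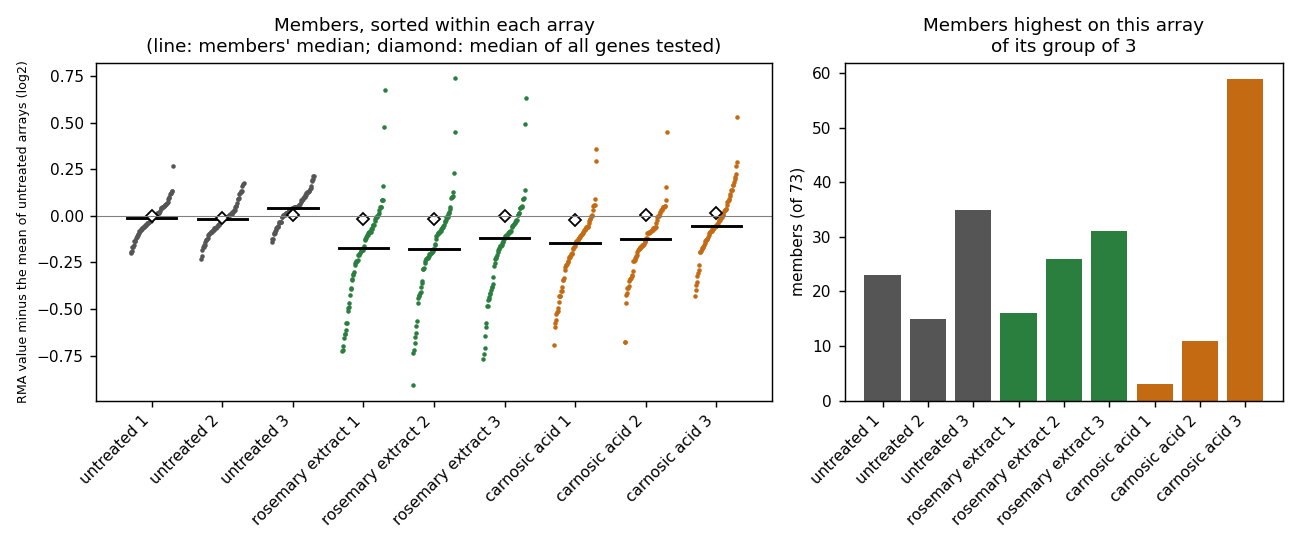
Left, RMA value minus the mean of the untreated arrays (log2, y axis) for the 73 genes sorted within each array, with the median as a line and the median of all genes tested as a diamond; right, the number of the 73 genes that were highest on that array of its group of 3. The medians of the 6 treated arrays lie below 0, and carnosic acid array 3 was highest for 59 genes.

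For 4 of the 73 genes the array holds several rows. The 7 rows of MRPS18B carry the same values. The dimmer row of MRPS16 changed by -0.36 with both treatments, against -0.16 and -0.10 on the brightest row, and the dimmer row of MRPS2 by -0.31 and -0.35, against -0.13 and -0.02. The dimmer row of MRPL44 was at 3.14 in untreated cells, under the dim limit of 4.50. Neither MRPS16 nor MRPS2 was called on its brightest row. The SD of the untreated arrays on their other rows was 0.23 and 0.24, and the difference between rows was not tested. For 23 of the 73 genes the same value recurs on 2 or more arrays, on 5 for MRPS2 and 4 for MRPS15 and MRPL38.

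Subunits with other symbols did not share a direction. Of 5 listed, 3 had a named row. PTCD3, a pentatricopeptide repeat protein of the small subunit, read 8.26, 8.16 and 8.42 untreated and 7.93, 7.96 and 7.84 with the extract, a change of -0.37 ± 0.08 (limma adjusted p = 0.00208). With carnosic acid it changed by -0.25 ± 0.08 (limma adjusted p = 0.0380), a call lost in 13 of the 20 settings, among them without untreated array 1 or 3. DAP3, a GTP-binding small subunit protein also known from cell death, rose: 8.51, 8.25 and 8.60 became 9.04, 8.85 and 8.77 with the extract, 0.43 ± 0.10 or 1.35-fold (limma adjusted p = 0.00376). Its carnosic acid arrays, at 8.59, 8.45 and 8.49, overlapped the untreated ones (0.06 ± 0.10, limma adjusted p = 0.728). CHCHD1 was not called (-0.09 ± 0.14 and -0.08 ± 0.14, limma adjusted p = 0.673 and 0.735).

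Of the genes that build the mitochondrial ribosome or modify its RNA, 26 had a named row (30 listed), and 6 fell and 1 rose with the extract (median -0.07), and 0 fell and 0 rose with carnosic acid at the same threshold (median -0.05). With the extract 23.1% were lower and 3.85% higher, against 16.3% and 21.8% of all genes tested. The background with carnosic acid was 6.12% lower and 12.9% higher. By limma at an unadjusted p under 0.05, 2 were lower and 1 was higher with carnosic acid, and the share called was not tested between the treatments. Without untreated array 2, 3 fell with the extract, and the rise was lost without untreated array 1 or 2 or extract array 2. Without untreated array 3, 1 rose with carnosic acid. MRM2, a methyltransferase of the large subunit RNA, read 9.22, 9.24 and 9.11 untreated, 8.71, 8.56 and 8.59 with the extract and 8.97, 9.03 and 9.18 with carnosic acid. Its extract arrays lay below all others, and its carnosic acid arrays overlapped the untreated ones. It fell by 0.57 ± 0.07 with the extract (limma adjusted p = 5.72e-05), was at -0.13 ± 0.07 with carnosic acid (limma adjusted p = 0.233), and the treatments differed by -0.44 ± 0.07 (limma adjusted p = 0.0012). MRM1, another methyltransferase of that RNA, changed by -0.66 ± 0.12 and RBFA, a small subunit assembly factor, by -0.50 ± 0.11 (limma adjusted p = 0.000769 and 0.00310). RCC1L, which takes part in assembly, changed by -0.22 ± 0.06 (limma adjusted p = 0.0150), and its call was lost without untreated array 2 or extract array 1.

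Of the translation factors, 14 had a named row (20 listed), and 3 fell and 1 rose with the extract, and 2 fell with carnosic acid. With the extract 21.4% were lower and 7.14% higher, against 16.3% and 21.8% of all genes tested, and with carnosic acid 14.3% were lower, against 6.12%. Without untreated array 3 or extract array 1, 1 fell with the extract, and 2 rose without untreated array 3 or extract array 3. With carnosic acid 1 fell without untreated array 1, carnosic acid array 1 or carnosic acid array 2, and 1 rose without carnosic acid array 2. TACO1, a translational activator of a respiratory chain subunit, fell with the extract by 0.25 ± 0.06 (limma adjusted p = 0.00785). LRPPRC and SLIRP, which together stabilise mitochondrial messages, changed by -0.16 ± 0.05 and -0.29 ± 0.10 (limma adjusted p = 0.0264 and 0.0439), calls lost in 8 and 11 of the 20 settings, in both cases also without untreated array 2 or 3 or extract array 1. MTRF1L, a release factor, rose by 0.42 ± 0.07 on its brightest row (limma adjusted p = 0.000373). Of its 5 rows, 4 were higher and 1 was lower with the extract, from -0.66 to 0.52. With carnosic acid the falls were MTIF2, an initiation factor, at -0.31 ± 0.06 (limma adjusted p = 0.00355), and MTRFR, a release factor of the same family as MRPL58, at -0.35 ± 0.09 (limma adjusted p = 0.0158, lost without untreated array 1 or carnosic acid array 1 or 2), both named after their values were seen.

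Of 12 genes with a named row (22 listed) that maintain mitochondrial DNA, transcribe it or process its RNA, 6 fell and 0 rose with the extract (median -0.16), against 16.3% lower and 21.8% higher over all genes tested. By limma at an unadjusted p under 0.05, 0 rose with either treatment. Over all 20 alternative settings the number lower with the extract was 3 to 7. It was 3 with every row tested, and 4 without untreated array 2 or without extract array 1, 2 or 3. It was 7 under cyclic loess and both rescalings over the genes tested. With carnosic acid 3 fell and 0 rose (median -0.05), against 6.12% lower and 12.9% higher over all genes tested. With that treatment 1 fell without untreated array 1, untreated array 3 or carnosic acid array 1. TRMT10C, a subunit of mitochondrial RNase P, read 7.84, 7.97 and 8.00 untreated, 7.56, 7.48 and 7.55 with the extract and 7.59, 7.44 and 7.63 with carnosic acid. The treated groups lay together below the untreated arrays, at changes of -0.41 ± 0.07 and -0.38 ± 0.07 (limma adjusted p = 0.000931 and 0.00378). PRORP, the nuclease subunit of the same enzyme, changed by -0.31 ± 0.09 with the extract (limma adjusted p = 0.0152, lost without untreated array 1 or extract array 2) and by -0.02 ± 0.09 with carnosic acid (limma adjusted p = 0.894). TWNK, the mitochondrial DNA helicase, changed by -0.42 ± 0.10 and -0.39 ± 0.10 (limma adjusted p = 0.00544 and 0.0194). PNPT1, an exonuclease that degrades mitochondrial RNA, changed by -0.27 ± 0.06 and -0.21 ± 0.06 (limma adjusted p = 0.00279 and 0.0239). The carnosic acid calls of TWNK and PNPT1 were both lost without untreated array 1 or 3 or carnosic acid array 1.

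Of 14 listed regulators of nuclear genes for mitochondria, 7 had a named row, and with the extract 1 fell and 2 rose. These shares, 14.3% and 28.6%, lie near the 16.3% and 21.8% of all genes tested. MYC, a transcription factor that drives ribosome and mitochondrial biogenesis, read 9.83, 9.70 and 9.71 untreated, 9.04, 9.05 and 9.01 with the extract and 9.25, 9.35 and 9.60 with carnosic acid. The 3 groups did not overlap, and carnosic acid array 3 was again the array of its group nearest to the untreated level. MYC changed by -0.72 ± 0.08 with the extract (limma adjusted p = 2.53e-05) and -0.35 ± 0.08 with carnosic acid (limma adjusted p = 0.0101). ESRRA, an orphan nuclear receptor that activates genes for mitochondria, went the opposite way: 7.40, 7.38 and 7.27 became 8.10, 8.06 and 7.88 with the extract and 7.75, 7.53 and 7.79 with carnosic acid. Its rises were 0.67 ± 0.09 (1.59-fold, limma adjusted p = 9.88e-05) and 0.34 ± 0.09 (1.27-fold, limma adjusted p = 0.0196, lost without untreated array 3 or carnosic acid array 1 or 3). ATF4, a stress response factor, rose by 0.21 ± 0.06 with the extract (limma adjusted p = 0.0169), a call lost under cyclic loess and without untreated array 3 or extract array 1. YY1 was not called (-0.19 ± 0.09 with the extract, limma adjusted p = 0.117). With carnosic acid, against a background of 6.12% lower and 12.9% higher, 1 fell, MYC, and 2 rose, ESRRA and SP1, a general promoter factor (0.34 ± 0.05, limma adjusted p = 0.000959), which the naming rule did not pick. No link between these regulators and the ribosomal protein genes was tested.

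**Figure D4:**
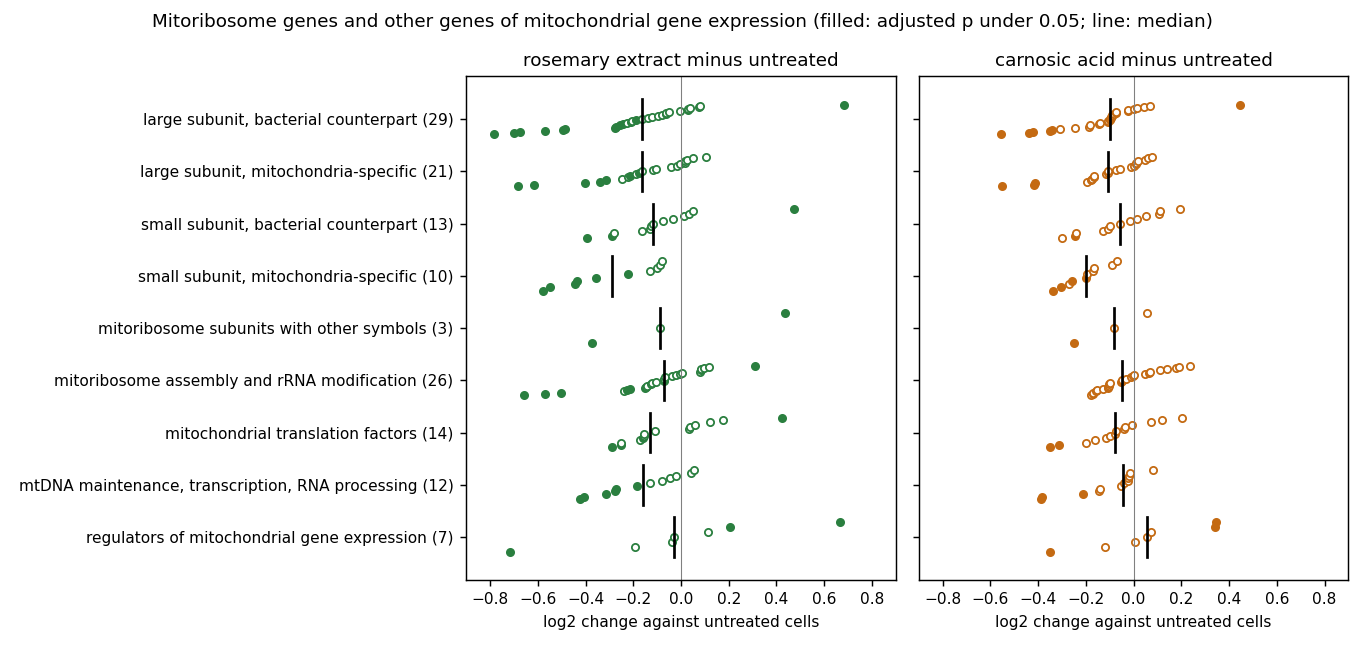
Log2 change against untreated cells (x axis) of the 4 classes of mitochondrial ribosomal protein genes and of 5 related lists (y axis, with the number of genes measured), for rosemary extract and carnosic acid; each point is a gene, filled where the adjusted p was under 0.05, and the line is the median. Small subunit genes specific to mitochondria lie wholly below 0 in both panels, and regulators lie on both sides.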

How the data were processed

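Per the labels, the authors made the deposited values with RMA in the oligo package of R, so they are log2 intensities after background correction and normalization to a common distribution; no version, build or array annotation is stated in the sources used here. RMA compresses large changes and gives no detection call. Gene names of the 53617 rows come from GEO's platform table: 16098 had 1 symbol, all identifiers matched RefSeq with 0 symbols changed, and 37519 are unnamed here. Why these rows are unnamed was not tested.

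From these values, group means were fitted to all 9 arrays with limma 3.58.1 in R 4.3.3 (lmFit, then eBayes with trend; 6 residual degrees of freedom), two-sided. Array medians were 4.82 to 4.90, arrays of 1 group correlated at 0.991 or above, and 0 pairs were identical. The 3 arrays per group limit the precision. The fit was tested on simulated data.

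The genes, lists and motifs were chosen with earlier results of these data known. Named were, per comparison, up to 6 called genes per direction, by size of change, whose groups do not overlap, 10 set genes (MRPL12, MRPS36 and MRPS6 had no named row), and the 4 smallest p-values for the extract in each related list; other names are said to be chosen afterwards. Alternatives were rescalings, filters, other rows, other fits and each array left out.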

Additional observations from a re-analysis of the deposited data

How the results depend on the processing

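All 20 alternatives kept the sign of the 3 median changes. Under cyclic loess, median centring, and centring and cyclic loess over the genes tested (the latter 2 chosen after seeing the data), the extract median was -0.18, -0.11, -0.17 and -0.20. With every row tested, 17 genes fell with the extract and 7 with carnosic acid. Cyclic loess gave 21 falls with carnosic acid, and the rescalings over the genes tested 22 and 27. Between the treatments 0 were lower with every row tested. The number higher there was 2 under cyclic loess, both rescalings over the genes tested, the dimmest 50% left out and only the 6 arrays compared, and 0 under median centring, no dim filter, every row tested and no mean-variance trend. The calls over all genes tested also shifted between these settings, and the cause of the shifts was not tested. Leaving out each array gave 17 to 28 lower and 2 higher with the extract (median -0.16 to -0.14), 8 to 14 lower and 1 to 2 higher with carnosic acid (-0.13 to -0.08), and 0 to 8 lower and 0 to 2 higher between the treatments (-0.07 to -0.01). After each gene's group mean was subtracted, same-numbered arrays of different groups correlated at -0.22 to 0.24 and others at -0.36 to 0.28. With 3 arrays per group, these values cannot decide whether the numbers pair the samples. With the replicate block 27 were lower and 2 higher with the extract, 14 and 1 with carnosic acid, and 6 and 2 between the treatments. Among the alternative values of single named genes, 746 kept their side of the threshold, 43 lost and 8 gained a call, and 0 changed sign while called.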

Other observations

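Some of these genes share a start region with a gene on the opposite strand. In RefSeq, 17 of the 65 with a promoter entry have a protein-coding neighbour that starts within 1000 bases and runs the other way. The fit tested 10 such neighbours, among them MRPL46 and MRPS11, which are neighbours of each other. The pairs were listed after the values were seen. MRPL27 starts 45 bases from EME1, which encodes a subunit of a DNA junction nuclease. EME1 fell by 0.87 with the extract (limma adjusted p = 2.88e-05) while MRPL27 fell by 0.24. MRPL57 starts 106 bases from SKA3, a kinetochore gene, which fell by 1.13 (limma adjusted p = 0.000114) while MRPL57 fell by 0.32. ZNF189, a zinc finger gene 233 bases from MRPL50, went the other way: it rose by 0.72 (limma adjusted p = 0.000765) and MRPL50 fell by 0.34, a call that was lost without untreated replicate 1 or 2 or rosemary extract replicate 1. FAU, a cytosolic ribosomal protein gene 49 bases from MRPL49, changed by -0.01 (limma adjusted p = 0.941), and PTCD2, 133 bases from MRPS27, by 0.02 (limma adjusted p = 0.906). MRPL46 and MRPS11 start 320 bases apart and run away from each other. Neither was called with the extract (-0.12 and 0.05, limma adjusted p = 0.286 and 0.592). With the extract EME1, SKA3 and HIRA, which lies 812 bases from MRPL40, were called lower and ZNF189 higher. Over all genes tested, 16.3% were lower and 21.8% higher. With carnosic acid EME1, SKA3 and ZNF189 changed by 0.15, 0.02 and 0.13 (limma adjusted p = 0.317, 0.933 and 0.523). MRPL27, MRPL57 and MRPL50 changed there by -0.08, -0.18 and -0.20. Whether neighbours move together was not tested.

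Rows that the naming rule left out were not called. MRPL45P2 was at 0.28 ± 0.14 with the extract (limma adjusted p = 0.136), and MRPL20-AS1 at -0.01 ± 0.09 (limma adjusted p = 0.964). MRPL23-AS1 was at -0.06 ± 0.08 and MRPS31P5 at 0.06 ± 0.08 (limma adjusted p = 0.635 and 0.632). MRPL42P5, at 3.52 in untreated cells, was dim and not tested.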
